A study of Mus musculus with 8 samples.

Results

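Transcripts of the lysosome, its proton pump and the autophagy machinery were followed in AKT-induced salivary gland tumours of mice, with and without rapamycin, and in normal salivary glands. The genes were taken by name from the array annotation: cathepsins with a single-letter suffix, Lamp genes, Atp6v0 and Atp6v1 subunits, numbered Atg genes, Map1lc3 and Gabarap genes, and Sqstm1, Becn1, Ulk1 and Tfeb (listed in the files as Tcfeb). The names match 64 of the 27573 gene names on the array. Of these genes, 56 had a usable probe that at least 1 group showed well above background on all its arrays, and they were tested among 16366 genes. A total of 50 were well above background on all 8 arrays. The 8 genes not tested were the cathepsins Ctsg, Ctsj, Ctsm, Ctsq and Ctsr and the autophagy gene Atg9b, well above background on no array, and the pump subunits Atp6v0a4 and Atp6v1e2, seen only in untreated tumours. The related genes Atg101, Atg13, Atg14, Atg2a, Atg2b, Atg9a and Lamp5 carry other names in the files and are not members.

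Lysosomes digest proteins, lipids and sugars at low pH. The vacuolar ATPase pumps the protons: its peripheral V1 sector splits ATP and its membrane V0 sector carries the protons across. Autophagy delivers cytoplasm to the lysosome in vesicles built by the ATG proteins. The mTORC1 kinase works at the lysosomal surface, where it holds back the autophagy kinase ULK1 and keeps the transcription factor TFEB, an activator of lysosomal genes, out of the nucleus. Rapamycin inhibits mTORC1. Both controls act through phosphorylation, which arrays do not measure, so the values here are transcript levels only.

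The 8 samples in 5 groups were each hybridised to 1 array, measuring the tissue's total RNA. The tumours were untreated (n = 2), or taken from mice given rapamycin until day 3 (n = 1) or day 14 (n = 2). The normal tissues, also untreated, were parotid (n = 2) and submandibular gland (n = 1). Strain, age, dose, the AKT allele and the promoter that drives it are not given in the sources used here. Nor do these sources say if the 2 arrays of a group stem from different animals. Sex-linked genes, given below, show that those of untreated tumour and of parotid do. P-values measure only the spread between these samples, which at day 14 may be technical. Both untreated tumours, day 14 replicate 1 and parotid replicate 1 were on slide 1, and the other 4 arrays on slide 2. A vehicle-treated tumour group was not analysed here.

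The 75th-percentile signal of an array ran from 145 in parotid replicate 2 to 972 in untreated tumour replicate 2, and 43.2% to 58.4% of spots were well above background. Replicates correlated across genes, which are not independent, at 0.982 for untreated tumours, 0.986 for day 14 and 0.928 for parotid. On both day 14 arrays, Xist (−2.10 and −2.40) was measured together with Y-linked genes (mean of 3 genes, 0.70 and 0.45). Each of the other 6 arrays was high in only 1 of these. Untreated tumour replicate 1 was high in Y-linked genes (0.15, Xist −5.45) and replicate 2 in Xist (4.19, Y-linked −7.59). Parotid replicate 1 was high in Xist (4.46, Y-linked −5.82) and replicate 2 in Y-linked genes (0.43, Xist −5.17). Both groups thus hold 2 different animals of opposite sex. Whether the day 14 arrays hold mixed animals or are independent was not tested.

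Cell type markers moved with the groups, and these are bulk samples, in which fewer cells of a type and less RNA per cell cannot be told apart. The summed linear signal of 9 acinar markers, in units of each array's 75th percentile, was 75.6 to 121 in untreated tumours, 98.1 on day 3, 3448 to 3805 at day 14, 3168 to 6293 in parotid and 735 in submandibular gland. All 9 were well above background in both parotids and 6 in the submandibular gland. The 7 skeletal muscle markers summed to 0.50 to 0.61 in untreated tumours, 0.58 on day 3 and 1.01 in submandibular gland, but to 696 to 826 at day 14 and 0.72 to 75.9 in parotid. The 8 proliferation markers summed to 130 to 139 in untreated tumours, 90.4 on day 3 and 6.83 to 7.11 at day 14. Day 14 tumours therefore held far more signal of acinar and muscle markers and less of proliferation markers than untreated tumours. The part of these markers in the results on lysosomal genes was not tested.

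Levels are given as the log2 signal relative to the array's 75th percentile, and differences as differences of these levels ± the standard error of the limma fit. A gene was called where its adjusted p, over all 16366 genes, was under 0.05. Against parotid, untreated tumours had 4 of the 56 genes called higher and 15 lower, where 18.7% of all genes tested were called higher and 20.3% lower. The median difference of the 56 was −0.53, against 0.02 for all genes. After 14 days of rapamycin, 11 were higher and 8 lower than in untreated tumours, where the background was 24.3% higher and 23.5% lower, and the median was 0.09 against 0.02. Members called made up 33.9% in each comparison, against 39.0% and 47.7% of all genes. The day 14 counts were under the background in both directions, and the members as a whole did not stand out there. Under other scalings the day 14 split was 5 higher and 7 lower (normexp), 13 and 12 (quantile) or 12 and 12 (deposited values). The counts moved with single arrays: against parotid, 8 were called without either untreated tumour (19.4% and 18.5% of all genes), 11 without either day 14 array (26.9%) and 36 without parotid replicate 1 (52.7%). With slide as a fixed block 10 were called there, beside 31.2% of all genes. For day 14 against untreated tumour, 9 were called without day 14 replicate 1 (22.8% of all genes), 11 without day 14 replicate 2 or either untreated tumour (24.4% to 27.4%), and 32 without either parotid (64.5%). After 3 days none was called, while 0.00611% of all genes (1 gene) was, and 2 of the 56 had an unadjusted p under 0.05.

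**Figure D1:**
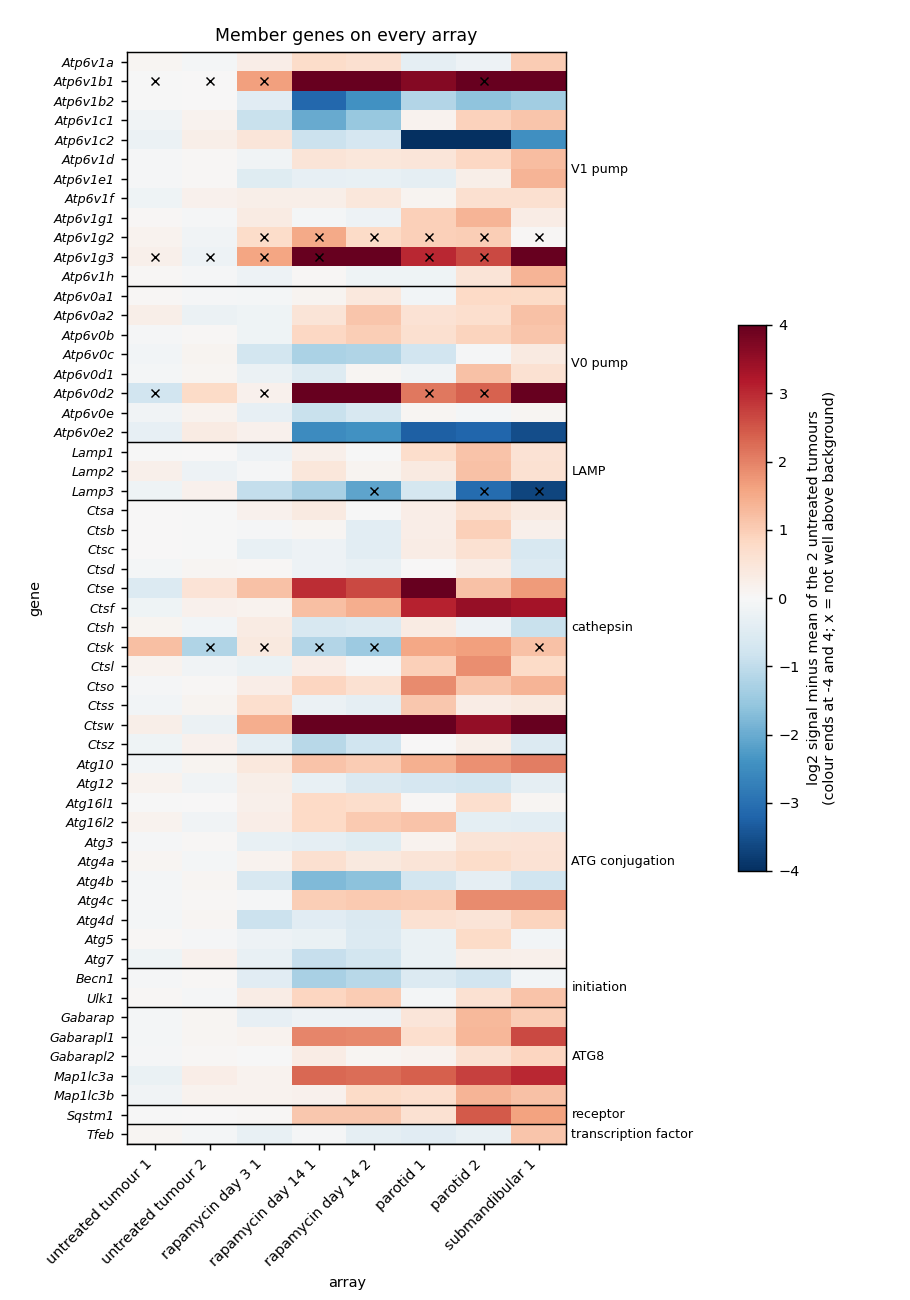
Heat map of the 56 tested genes (rows, by role) on the 8 arrays (columns). Colour is the log2 signal minus the mean of the 2 untreated tumours, ending at −4 and 4, and a cross marks an array on which the gene's probe was not well above background. The day 3 column is close to the untreated tumours, while day 14 differs in both directions among the pump subunits.

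Genes of the proton pump were called in both directions. Of 12 V1 genes tested, 2 were higher and 4 lower in untreated tumour than in parotid. Of 8 V0 genes, 1 was higher and 2 lower. These are 50% and 37.5% of the genes, against 39.0% of all genes. At day 14 against untreated tumour, 2 V1 genes rose and 2 fell (33.3%), and 2 V0 genes rose and 3 fell (62.5%), against 47.7% of all genes. Most of the called subunits exist in several versions, each from its own gene, and the differences ran in both directions.

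Atp6v1c2 encodes a tissue-restricted version of the C subunit, which bridges the 2 sectors. Its level was 3.63 and 4.09 in untreated tumours, 4.35 on day 3, 3.00 and 3.19 at day 14, −1.32 and −0.17 in parotid and 1.42 in submandibular gland. All 5 tumour arrays lay above all 3 gland arrays. The gene was 4.61 ± 0.40 higher in untreated tumour than in parotid (limma adjusted p = 0.000553) and 2.44 ± 0.49 higher than in submandibular gland (adjusted p = 0.0135, and 0.0605 without untreated tumour replicate 2). At day 14 it was not called against untreated tumour and was still 3.84 ± 0.40 above parotid (adjusted p = 0.00731), a call lost without either day 14 array (0.125 and 0.121). The widely expressed version, Atp6v1c1, was at 0.16 and 0.45 in untreated tumours, −0.57 on day 3, −1.70 and −1.20 at day 14, 0.44 and 1.22 in parotid and 1.42 in submandibular gland. The day 14 arrays were the lowest of all. Atp6v1c1 fell by 1.76 ± 0.36 from untreated tumour to day 14 (adjusted p = 0.00921), though not past the threshold without untreated tumour replicate 2 or day 14 replicate 1 (0.0633 and 0.071).

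Atp6v0e2 encodes a version of the small e subunit of V0. Its level was 1.88 and 2.56 in untreated tumours, 2.38 on day 3, −0.30 and −0.21 at day 14, −1.03 and −0.95 in parotid and −1.32 in submandibular gland. The untreated and day 3 tumours stood well above the other 5 arrays, with no overlap. It was 3.21 ± 0.29 higher in untreated tumour than in parotid (adjusted p = 0.000641) and fell by 2.48 ± 0.29 by day 14 (adjusted p = 0.00133). Its second probe gave 3.72 and −4.23. The probe reported lies at chr6:48471166-48471225 of mm8. Its counterpart Atp6v0e was called lower at day 14 (−0.77 ± 0.21, adjusted p = 0.0268), but its second probe stood at 1.46, and the mean of both at 0.34, the opposite direction.

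The B subunits hold the catalytic sector together with the A subunit. Atp6v1b2, the general version, was at 0.32 and 0.33 in untreated tumours, −0.11 on day 3, −2.83 and −2.08 at day 14, −0.84 and −1.29 in parotid and −1.05 in submandibular gland. Untreated tumour was the highest group and day 14 the lowest. Atp6v1b2 was 1.39 ± 0.36 above parotid in untreated tumour (adjusted p = 0.0267, and 0.125 and 0.126 without either untreated tumour) and fell by 2.78 ± 0.36 by day 14 (adjusted p = 0.00189). Atp6v1b1 is the version of acid-secreting epithelial cells, and its probe lies at chr6:83722544-83723522 of mm8. It was at −7.12 and −7.11 in untreated tumours, −5.48 on day 3, −2.34 and −2.48 at day 14, −3.45 and −3.08 in parotid and −0.83 in submandibular gland. No untreated or day 3 tumour array was well above background, whereas both day 14 arrays, parotid replicate 1 and the submandibular array were.

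Where no array of a group showed a gene well above background, its fold is only a bound, taken from the lowest signal well above background on each dim array or the gene's own where higher. By this bound Atp6v1b1 was at least 57.3-fold lower in untreated tumour than in submandibular gland (adjusted p = 0.000701, and 0.287 in 1 of 16 alternative runs). At day 14 it was at least 19.2-fold higher than in untreated tumour (adjusted p = 0.000567). It was also called lower in untreated tumour than in parotid (adjusted p = 0.00113), 10.6-fold by the same reckoning. Parotid replicate 2 was itself not well above background, so that value is not a firm bound. Atp6v1g3, a restricted version of the G subunit of the stalk, was at −7.31 and −7.74 in untreated tumours, −5.94 on day 3, −3.41 and −1.32 at day 14, −4.51 and −4.89 in parotid and −1.27 in submandibular gland. It was well above background only on day 14 replicate 2 and in the submandibular gland. It was called higher at day 14 than in untreated tumour (adjusted p = 0.00277), 19.8-fold by the same reckoning. That value is not a firm bound and rests on day 14 replicate 2: on replicate 1 Atp6v1g3 was dim, as in untreated tumour. It was also called lower in untreated tumour than in parotid (adjusted p = 0.0276), where both groups were dim and no fold can be given. That last call was lost without either untreated tumour (0.0876 and 0.125). Differences also arose where nothing was detected. The second probe of Atp6v1g3, well above background on no array, stood at −1.91 against parotid and 1.90 at day 14. The 6 genes well above background on no array ran from −2.82 (Ctsg) to 0.01 (Atg9b) against parotid. At day 14 they ran from 0.04 (Atg9b) to 1.90 (Ctsg). A call between dim arrays therefore need not reflect a transcript.

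Atp6v0d2 encodes a restricted version of the d subunit of V0, known from osteoclasts and acid-secreting epithelia. Its level was −6.56 and −5.04 in untreated tumours, −5.63 on day 3, −1.05 and −0.69 at day 14, −3.70 and −3.44 in parotid and 0.19 in submandibular gland. Day 14 and the submandibular gland were well above background on all their arrays, untreated tumour on 1 of 2, and day 3 and parotid on none. Day 14 was 4.93 ± 0.58 above untreated tumour (adjusted p = 0.00133). With 1 of the 2 untreated tumour arrays dim, that difference was 4.17 without untreated tumour replicate 1 and 5.69 without replicate 2. Day 14 was at least 21.5-fold above day 3 (adjusted p = 0.00741, and 0.0582 and 0.0648 without either day 14 array). Atp6v0d2 was also called lower in untreated tumour than in parotid (adjusted p = 0.0263), where both parotid arrays were dim and no fold can be given. That call was lost without untreated tumour replicate 1 (0.125) and without either day 14 array (0.066 and 0.0663).

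Atp6v1b1, Atp6v1g3 and Atp6v0d2 belong to the pump of ionocyte-like duct cells, among others. The 6 markers of these cells summed to 4.61 to 5.80 in untreated tumours, 2.34 on day 3, 11.0 to 15.4 at day 14, 5.24 to 6.81 in parotid and 32.2 in submandibular gland. Of the 6, 2 and 4 were well above background in untreated tumours, 2 on day 3, 5 and 6 at day 14, 5 in each parotid and 6 in submandibular gland. Ascl3, 1 of the 6 and a transcription factor of these cells, was at −6.55 and −6.45 in untreated tumours and −5.78 at day 3. It was at 1.99 and 2.64 at day 14, −0.36 and 0.62 in parotid and 3.49 in submandibular gland. In untreated and day 3 tumours Ascl3 was near the levels of Ctsj, a gene well above background on no array. Ctsj was at −7.17 and −7.46 in untreated tumours and −5.77 on day 3. The list as a whole did not follow Ascl3: its sum in untreated tumours overlapped that in parotid. The other markers of the list are not given singly. The part of these markers in the results was not tested. With normexp background correction, which lifts dim signals, the 3 day 14 differences from untreated tumour shrank to 1.35 for Atp6v1b1, 1.51 for Atp6v1g3 and 1.84 for Atp6v0d2 (adjusted p = 0.315, 0.205 and 0.0811). The untreated tumour difference of Atp6v1b1 from parotid shrank to −1.05 (adjusted p = 0.483).

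**Figure D2:**
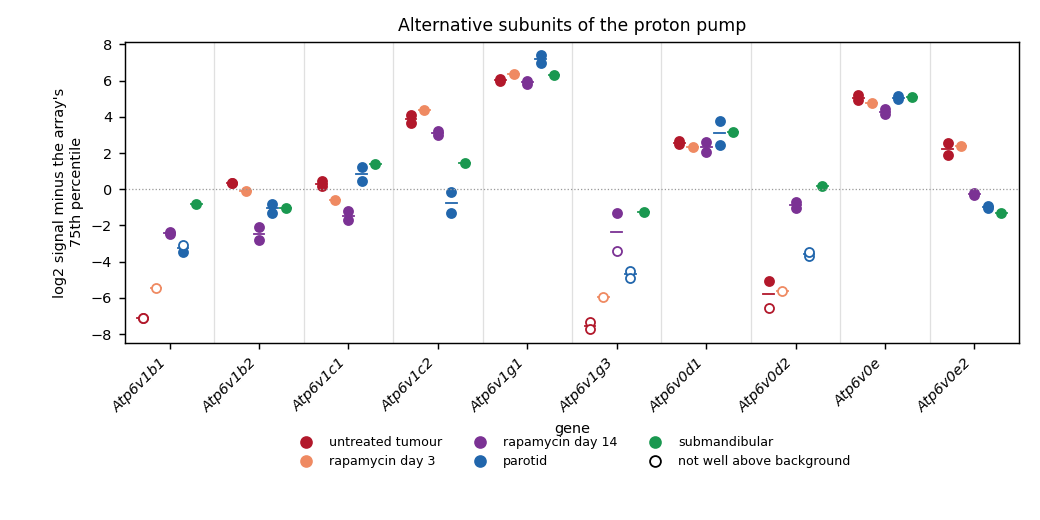
Levels of 10 proton pump subunits that exist in several versions (log2 signal minus the array's 75th percentile), by group, with 1 point per array, a bar at the group mean and open points where the probe was not well above background. Atp6v1c2 is highest in all 5 tumour arrays, Atp6v0e2 and Atp6v1b2 are lower at day 14 than at day 3, and Atp6v1b1, Atp6v1g3 and Atp6v0d2 are dim in untreated and day 3 tumours. Levels of different genes are not comparable with each other.

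Among the other pump subunits, Atp6v0b, a proton-binding subunit of V0, was 0.77 ± 0.20 lower in untreated tumour than in parotid (adjusted p = 0.0262) and rose by 0.90 ± 0.20 by day 14 (adjusted p = 0.0123). Its levels were 3.06 and 3.15 in untreated tumours, 2.93 on day 3, 3.92 and 4.09 at day 14, 3.74 and 4.01 in parotid and 4.22 in submandibular gland. Day 14 thus reached the parotid range. Atp6v0c, which forms most of the proton-binding ring, fell by 1.23 ± 0.29 by day 14 (adjusted p = 0.0164). The stalk subunits Atp6v1g1 (−1.16 ± 0.24, adjusted p = 0.0127) and Atp6v1d (−0.66 ± 0.21, adjusted p = 0.0491) were lower in untreated tumour than in parotid. Leaving out either untreated tumour ended the calls of Atp6v0b, Atp6v1g1 and Atp6v1d against parotid, and those of Atp6v0b and Atp6v0c at day 14 (largest adjusted p = 0.254, for Atp6v1d). Leaving out either day 14 array did the same for Atp6v0b in both comparisons, for Atp6v1d against parotid and for Atp6v0c at day 14. Atp6v1a, Atp6v1e1, Atp6v1f, Atp6v1g2, Atp6v1h, Atp6v0a1, Atp6v0a2 and Atp6v0d1 were called in neither comparison.

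Cathepsins, the lysosomal proteases, were never called higher in untreated tumour than in parotid: of 13 tested, 4 were lower and 9 were not called, and the median difference was −0.68. At day 14 against untreated tumour, 2 rose and 1 fell. These are 30.8% and 23.1% of the cathepsins tested, against 39% and 47.7% of all genes. The abundant general proteases Ctsb and Ctsd were called in neither.

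Ctsf, a cysteine protease, differed between gland and tumour. Its level was −1.68 and −1.36 in untreated tumours, −1.37 on day 3, −0.33 and −0.08 at day 14, 1.57 and 1.96 in parotid and 1.79 in submandibular gland. The 3 gland arrays lay above all tumour arrays, and day 14 lay between untreated tumour and gland. Ctsf was 3.29 ± 0.28 lower in untreated tumour than in parotid (adjusted p = 0.000521), and 1.97 ± 0.28 lower at day 14 than in parotid (adjusted p = 0.0139, and 0.161 and 0.136 without either day 14 array). From untreated tumour to day 14 it rose by 1.32 ± 0.28 (adjusted p = 0.0103). That rise was at an adjusted p of 0.0743 without untreated tumour replicate 1, 0.0514 without day 14 replicate 1 and 0.0743 without day 14 replicate 2.

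Ctsw is known from cytotoxic T cells and natural killer cells, and its probe lies at chr19:5465371-5465430 of mm8. Its level was −4.49 and −4.95 in untreated tumours, −3.27 on day 3, 0.56 and 1.03 at day 14, 1.86 and −1.20 in parotid and 0.60 in submandibular gland. All untreated and day 3 tumour arrays lay below every other array. Ctsw was 5.05 ± 0.92 lower in untreated tumour than in parotid on the log2 scale (adjusted p = 0.00781), and the difference was −3.52 without parotid replicate 1 and −6.58 without parotid replicate 2. It rose by 5.51 ± 0.92 by day 14 (adjusted p = 0.00463). Markers of T and cytotoxic cells, 8 of 9 listed genes tested, also differed between the groups. Their sum was 0.31 to 0.32 in untreated tumours, 0.25 on day 3 and 12.4 to 15.7 at day 14. It was 64.6 and 3.08 in parotid replicates 1 and 2 and 8.01 in submandibular gland. On day 3 Ctsw was above both untreated tumours, whereas the sum was below both. The parotid with more Ctsw was the one with more of these markers, and their part in the result was not tested.

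Ctsl (−1.41 ± 0.34, adjusted p = 0.0213) and Ctso (−1.50 ± 0.31, adjusted p = 0.0128), both cysteine proteases, were also lower in untreated tumour than in parotid. Ctsz, a carboxypeptidase, fell by 0.96 ± 0.24 by day 14 (adjusted p = 0.018). None of these 3 calls held without untreated tumour replicate 1 or without replicate 2 (adjusted p = 0.0569 to 0.143), and those of Ctsl and Ctsz were also lost without either day 14 array. Ctss and Ctsk, proteases of antigen-presenting cells and of osteoclasts and fibroblasts, were not called in either comparison. Ctsk was at −2.92 in untreated tumour replicate 1 and −5.31 in replicate 2, a wide spread within 1 group. The 13 markers of macrophages, cells rich in lysosomes, summed to 190 to 270 in untreated tumours, 225 on day 3, 116 to 119 at day 14, 277 to 320 in parotid and 152 in submandibular gland.

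**Figure D3:**
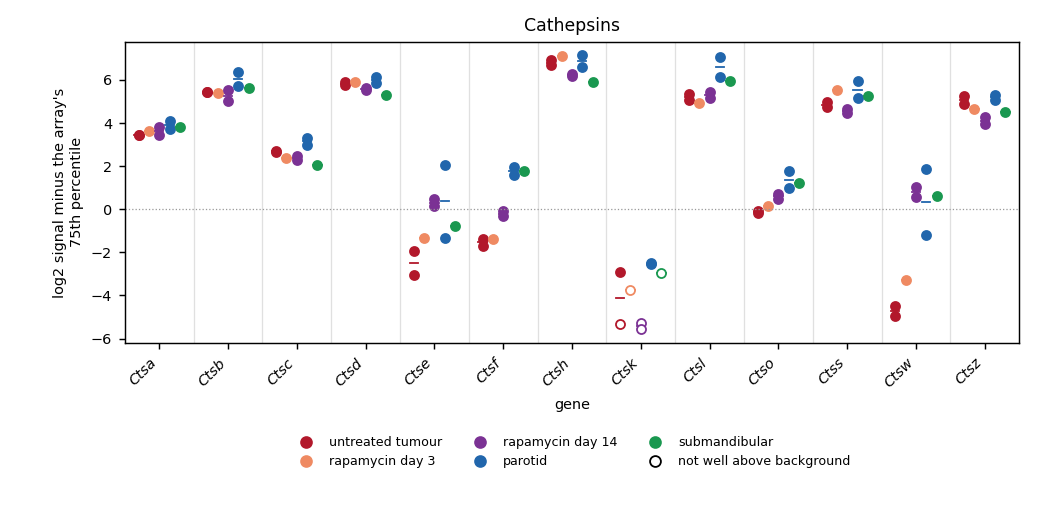
Levels of the 13 tested cathepsins (log2 signal minus the array's 75th percentile), by group, with 1 point per array, a bar at the group mean and open points where the probe was not well above background. Ctsf is below all gland arrays in every tumour array, and Ctsw is lowest in untreated and day 3 tumours.

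Of the 3 lysosomal membrane proteins, none was called at day 14 against untreated tumour, where 47.7% of all genes were. In untreated tumour, 1 was lower than in parotid (33.3%, against 39% of all genes called). Lamp1, a main glycoprotein of that membrane, was at 4.86 and 4.90 in untreated tumours, 4.67 on day 3, 5.08 and 4.85 at day 14, 5.58 and 6.03 in parotid and 5.44 in submandibular gland. Every tumour array was below every gland array. Lamp1 was 0.93 ± 0.24 lower in untreated tumour than in parotid (adjusted p = 0.0248), a call lost without either untreated tumour (0.141 and 0.131) or either day 14 array (0.0607 and 0.061). Its difference at day 14 from untreated tumour was 0.09 ± 0.24 (adjusted p = 0.781). Lamp2, whose product also serves chaperone-mediated autophagy, was at 4.61 and 4.22, 4.38, 4.88 and 4.54, 4.79 and 5.60, and 5.04 in the same order. It was called in neither comparison. Its 3 probes disagreed on the difference of untreated tumour from parotid, from −0.78 to 0.87, and of day 14 from untreated tumour, from −1.05 to 0.30. Lamp3, a restricted member, was at least 4.20-fold higher in untreated tumour than in submandibular gland (adjusted p = 0.0345), but not past the threshold without either untreated tumour (0.0924 and 0.117) or either day 14 array (0.0767 and 0.0763).

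The ATG8 family, small proteins that are coupled to the autophagosome membrane and bind cargo receptors, was lower in untreated tumour than in parotid in 2 of 5 genes and rose in 2 of 5 at day 14. They were Map1lc3a and Gabarapl1 in both comparisons, which share the untreated tumour arrays. These are 40% of the family each time, against 39% of all genes called against parotid and 47.7% at day 14. Map1lc3a, an LC3 gene, was at 0.29 and 0.82 in untreated tumours, 0.70 on day 3, 2.86 and 2.78 at day 14, 2.94 and 3.28 in parotid and 3.58 in submandibular gland. The 3 untreated and day 3 tumour arrays lay below all other arrays. Map1lc3a was 2.55 ± 0.26 lower in untreated tumour than in parotid (adjusted p = 0.000912) and rose by 2.26 ± 0.26 by day 14 (adjusted p = 0.00119). Its probe lies at chr2:154969140-154969199 of mm8.

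Gabarapl1 belongs to the GABARAP branch of the family, and its probe lies at chr6:129507929-129507988 of mm8. It was at 4.97 and 5.16 in untreated tumours, 5.21 on day 3, 7.02 and 6.99 at day 14, 5.74 and 6.38 in parotid and 7.70 in submandibular gland. Day 14 lay above parotid and below submandibular gland. Gabarapl1 rose by 1.94 ± 0.28 from untreated tumour to day 14 (adjusted p = 0.00272), but its dimmer second probe gave 0.06. It was 1.00 ± 0.28 lower in untreated tumour than in parotid (adjusted p = 0.0331), past the threshold neither without either untreated tumour (0.187 and 0.13) nor without either day 14 array (0.0803 and 0.0804). The dimmer probe gave −0.15 there. Muscle markers were high on the same day 14 arrays (696 to 826, against 0.50 to 0.61 in untreated tumours), and their part in the rise of Gabarapl1 and Map1lc3a was not tested.

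The other 3 ATG8 genes were called in neither comparison. Map1lc3b, the LC3 gene most used as an autophagosome marker, was at 3.98 and 4.27 in untreated tumours, 4.25 on day 3, 4.30 and 4.89 at day 14, 4.78 and 5.48 in parotid and 5.31 in submandibular gland. It was 1.01 ± 0.33 lower in untreated tumour than in parotid (adjusted p = 0.0516). At day 14 it was 0.47 ± 0.33 higher than in untreated tumour (adjusted p = 0.272), but its second probe gave −0.28. Gabarap was at 3.11 and 3.28, 2.86, 3.00 and 2.99, 3.67 and 4.50, and 4.18 in the same order, with differences of −0.89 ± 0.30 (adjusted p = 0.0553) and −0.20 ± 0.30 (adjusted p = 0.608). Gabarapl2 was at 3.29 and 3.37, 3.31, 3.62 and 3.42, 3.47 and 3.94, and 4.19, with differences of −0.37 ± 0.23 (adjusted p = 0.238) and 0.19 ± 0.23 (adjusted p = 0.51). Both untreated tumours lay below both parotids in all 5 family members, as in 36.2% of all genes.

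Sqstm1 encodes p62, a cargo receptor that binds ATG8 proteins and is itself degraded by autophagy. Its level was 5.27 on both untreated tumour arrays, 5.33 on day 3, 6.36 and 6.35 at day 14, 5.89 and 7.71 in parotid and 6.89 in submandibular gland. Day 14 was above untreated tumour on both arrays, but the parotids differed by more than that gap, and this spread enters the test. The day 14 difference was 1.08 ± 0.55 (adjusted p = 0.15) and that of untreated tumour from parotid −1.53 ± 0.55 (adjusted p = 0.07), so neither was called.

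The initiation genes moved in opposite directions at day 14. Ulk1, the kinase that starts autophagy, was at 4.46 and 4.40 in untreated tumours, 4.72 on day 3, 5.30 and 5.44 at day 14, 4.35 and 5.03 in parotid and 5.56 in submandibular gland. It rose by 0.94 ± 0.27 from untreated tumour to day 14 (adjusted p = 0.0299), and its second probe gave 0.46. Becn1, a subunit of the lipid kinase complex that acts after ULK1, was at 1.59 and 1.65, 1.17, 0.33 and 0.51, 1.07 and 0.85, and 1.51. The day 14 arrays were its lowest, and it fell by 1.20 ± 0.21 (adjusted p = 0.00585). Ulk1 was no longer called without any 1 of the 4 arrays compared (adjusted p = 0.115 to 0.149), and Becn1 was at 0.0553 without untreated tumour replicate 2 and 0.0514 without day 14 replicate 1.

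Of the 11 genes of the 2 conjugation systems, which attach ATG12 to ATG5 and ATG8 proteins to lipid, 1 was higher and 2 were lower in untreated tumour than in parotid. At day 14, 2 rose and 1 fell. These are 27.3% of the conjugation genes each time, against 39% and 47.7% of all genes. Atg10, the conjugating enzyme for ATG12, was at −1.41 and −1.19 in untreated tumours, −0.88 on day 3, −0.15 and −0.28 at day 14, 0.13 and 0.54 in parotid and 0.76 in submandibular gland. It was 1.64 ± 0.28 lower in untreated tumour than in parotid (adjusted p = 0.00571). It was called 1.09 ± 0.28 higher at day 14 than in untreated tumour (adjusted p = 0.0196), but the second probe of the gene gave −0.84, and the call was lost without any 1 of the 4 arrays compared (0.0806 to 0.119).

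Atg4b, a protease that trims ATG8 proteins, was at 0.24 and 0.39 in untreated tumours, −0.32 on day 3, −1.45 and −1.31 at day 14, −0.43 and −0.05 in parotid and −0.48 in submandibular gland. It fell by 1.70 ± 0.27 by day 14 (adjusted p = 0.00399), and its second probe gave −1.68. Its relative Atg4c was 1.45 ± 0.35 lower in untreated tumour than in parotid (adjusted p = 0.0204), but a second probe gave −0.20, and with the mean of its probes Atg4c was not called (adjusted p = 0.135). Atg12 was 0.70 ± 0.21 higher in untreated tumour than in parotid (adjusted p = 0.043), and Atg16l1, which places the ATG12 conjugate on the membrane, rose by 0.75 ± 0.25 by day 14 (adjusted p = 0.0498). These last 3 calls were each lost when either untreated tumour or either day 14 array was left out (adjusted p = 0.0548 to 0.263). Atg3, Atg4a, Atg4d, Atg5, Atg7 and Atg16l2 were called in neither comparison.

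**Figure D4:**
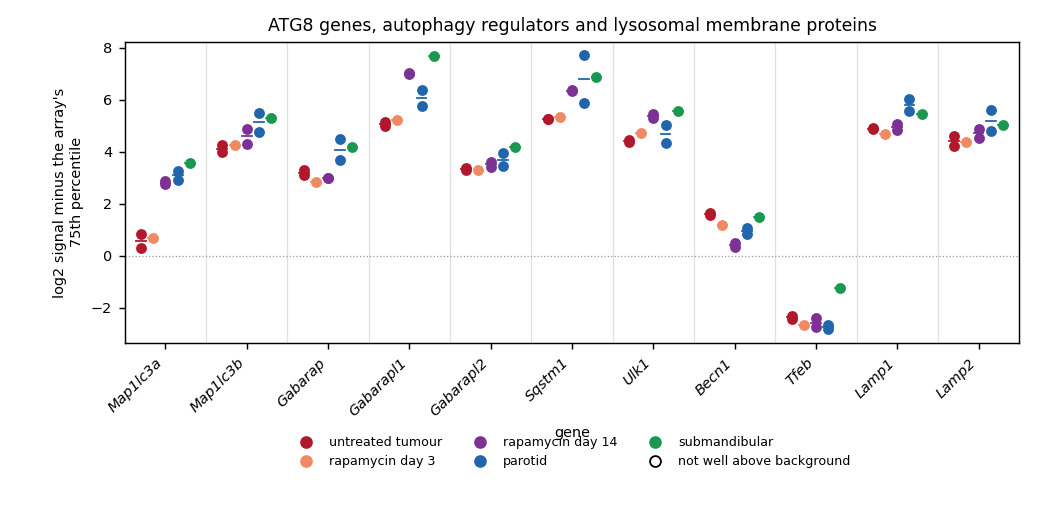
Levels of the ATG8 genes, Sqstm1, Ulk1, Becn1, Tfeb, Lamp1 and Lamp2 (log2 signal minus the array's 75th percentile), by group, with 1 point per array and a bar at the group mean. Map1lc3a and Gabarapl1 are lowest in untreated and day 3 tumours and higher at day 14, Becn1 is lowest at day 14, and Sqstm1 differs between the 2 parotid arrays.

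Tfeb itself was at −2.30 and −2.43 in untreated tumours, −2.67 on day 3, −2.41 and −2.72 at day 14, −2.83 and −2.66 in parotid and −1.25 in submandibular gland. The submandibular array lay above the other 7, which were close together. The day 14 difference from untreated tumour was −0.20 ± 0.35 (adjusted p = 0.66). TFEB is known to bind the letters TCACGTGA, a palindrome that holds the shorter E-box CACGTG, so promoters of the members were searched on both strands for TCACGTGA, TCACGTG and CACGTG. Windows of 300 bases, 250 before the start site and 50 after it, were taken from RefSeq (GRCm38.p6), where 50 of the 64 genes had 58 windows. TCACGTGA was in 6 of the 58 (10.3%) and in 0.974% of all 32851 windows, TCACGTG in 9 (15.5%, against 3.77%) and CACGTG in 12 (20.7%, against 7.15%). A match is a description of these letters and not a binding site. The 6 genes with TCACGTGA are shown because they carry the full motif, in stretches of 100 bases, 5′ to 3′ on the strand of the gene, with the motif in capitals:
Atg3 (chr16:45158711-45158810, + strand): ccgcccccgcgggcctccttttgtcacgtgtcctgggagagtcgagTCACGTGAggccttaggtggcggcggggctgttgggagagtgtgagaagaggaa
Atp6v0d1 (chr8:105566035-105566134, - strand): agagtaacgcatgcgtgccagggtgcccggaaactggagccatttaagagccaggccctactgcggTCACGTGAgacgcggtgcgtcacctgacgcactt
Atp6v0e (chr17:26676326-26676425, + strand): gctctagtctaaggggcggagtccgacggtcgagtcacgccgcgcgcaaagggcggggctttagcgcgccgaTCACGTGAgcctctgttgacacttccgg
Atp6v1a (chr16:44139338-44139437, - strand): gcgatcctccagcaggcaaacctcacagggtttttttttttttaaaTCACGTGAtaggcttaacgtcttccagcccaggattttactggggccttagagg
Ctsa (chr2:164833703-164833802, + strand): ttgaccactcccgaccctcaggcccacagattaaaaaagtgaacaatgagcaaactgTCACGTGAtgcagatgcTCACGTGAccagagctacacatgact
Ctsd (chr7:142387873-142387972, - strand): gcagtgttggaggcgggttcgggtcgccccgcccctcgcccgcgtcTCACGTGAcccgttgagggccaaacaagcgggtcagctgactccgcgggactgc

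These genes encode the A subunit of V1 (Atp6v1a), the d and e subunits of V0 (Atp6v0d1, Atp6v0e), an ATG8 conjugating enzyme (Atg3), a carboxypeptidase (Ctsa, with 2 matches) and the main aspartic protease (Ctsd). None of the 6 was called in untreated tumour against parotid, where 39% of all genes were. At day 14, where 47.7% of all genes were called, 1 was, Atp6v0e. It was lower there and its 2 probes disagreed. The median difference of the 6 was −0.25 against parotid and −0.24 at day 14, against 0.02 for all genes in each comparison.

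After 3 days of rapamycin none of the 56 genes was called. The differences between the day 3 array and untreated tumours ran from −0.95 to 1.64, with a median of 0.02 against 0.06 for all genes. Ulk1 was at 0.29 ± 0.33 (adjusted p = 0.903), Becn1 at −0.45 ± 0.26 (adjusted p = 0.713), Sqstm1 at 0.06 ± 0.68 (adjusted p = 0.993) and Map1lc3b at 0.13 ± 0.40 (adjusted p = 0.967). With 1 array, assumed to vary like the other groups, changes of this size were not detectable.

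Day 14 against day 3 had 7 genes higher and 2 lower, with a background of 10.9% and 11.8%. Higher were Atp6v0d2, Ctsw (4.06 ± 1.13, adjusted p = 0.0481), Atp6v1g3 (7.60-fold, adjusted p = 0.0375) and Atp6v1b1 (at least 7.40-fold, adjusted p = 0.0103). Map1lc3a (2.11 ± 0.31, adjusted p = 0.00741), Gabarapl1 (1.79 ± 0.34, adjusted p = 0.0158) and Atp6v0b (1.08 ± 0.24, adjusted p = 0.0262) were higher too. The fold of Atp6v1g3 takes in day 14 replicate 1, which was dim, and is not a firm bound. Lower were Atp6v0e2 (−2.64 ± 0.36, adjusted p = 0.00553) and Atp6v1b2 (−2.34 ± 0.44, adjusted p = 0.0156). This comparison shares the day 14 arrays with that of day 14 against untreated tumour. Each of the 9 calls was lost in at least 1 of the 6 fits that left out a replicate. Fewer members were called without day 14 replicate 1 or without replicate 2, and more without either parotid. The share of all genes called moved in the same direction as these counts. The split was 4 higher and 3 lower with normexp (17.4% of all genes called) and 6 and 5 with the deposited values (24.9%).

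Day 14 against parotid, which uses no untreated tumour array, had 2 genes higher and 6 lower, with a background of 6.25% and 5.08%. Besides Atp6v1c2, Atp6v0d2 was higher in the tumours (at least 6.51-fold, adjusted p = 0.0368). Atp6v1c1 (−2.28 ± 0.36, adjusted p = 0.0183), Atp6v1g1 (−1.30 ± 0.24, adjusted p = 0.0269), Atg4b (−1.14 ± 0.27, adjusted p = 0.0484), Atg4d (−1.08 ± 0.24, adjusted p = 0.0384) and Ctsz (−1.07 ± 0.24, adjusted p = 0.0396) were lower, as was Ctsf. The second probe of Atg4d stood at 0.73, the opposite direction, and with the mean of its probes the gene was not called (adjusted p = 0.629). Map1lc3a, Gabarapl1 and the other ATG8 genes were not called. When a replicate was left out, the count of members called moved in the same direction as the share of all genes called. None of the member calls held without day 14 replicate 1 or without replicate 2, and no other gene was called there. Fewer members were called without either untreated tumour, and more without either parotid.

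Untreated tumour against submandibular gland, a single array, had 3 genes higher and 16 lower, with a background of 14.3% and 15.2%, and a median of −0.70 against 0.05 for all genes. Higher were Lamp3, Atp6v0e2 (3.54 ± 0.36, adjusted p = 0.00141) and Atp6v1c2. The lowest were Atp6v1b1, Atp6v1g3 (at least 42.3-fold lower, adjusted p = 0.00463), Atp6v0d2 (−5.99 ± 0.71, adjusted p = 0.00234) and Ctsw (−5.32 ± 1.13, adjusted p = 0.0168, and 0.0511 to 0.0596 without untreated tumour replicate 2 or either day 14 array). Map1lc3a (−3.03 ± 0.31, adjusted p = 0.0016), Gabarapl1 (−2.63 ± 0.34, adjusted p = 0.00316) and Ulk1 (−1.13 ± 0.33, adjusted p = 0.0463, and 0.103 to 0.173 without an untreated tumour or a day 14 array) were lower too. Both untreated tumours were on slide 1 and the submandibular array on slide 2. With slide as a fixed block 10 genes were called, 2 higher and 8 lower, beside 13.8% of all genes. When a replicate was left out, the count moved in the same direction as the share of all genes called. The count was lower without any 1 untreated tumour or day 14 array and higher without either parotid. With quantile normalization it was 7 higher and 17 lower, beside 34.5% of all genes called. Of the 56 genes, 29 (51.8%) had their highest group level in the submandibular gland, against 20.5% of all genes, and 14 (25%) in parotid, against 16.5%. The lowest level was in untreated tumour for 18 (32.1%, against 27.1% of all genes) and at day 3 and at day 14 for 14 each (25%, against 11.9% and 24.9%). Submandibular gland and day 3 are single arrays whose levels are not averaged, and these shares were not tested.

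**Figure D5:**
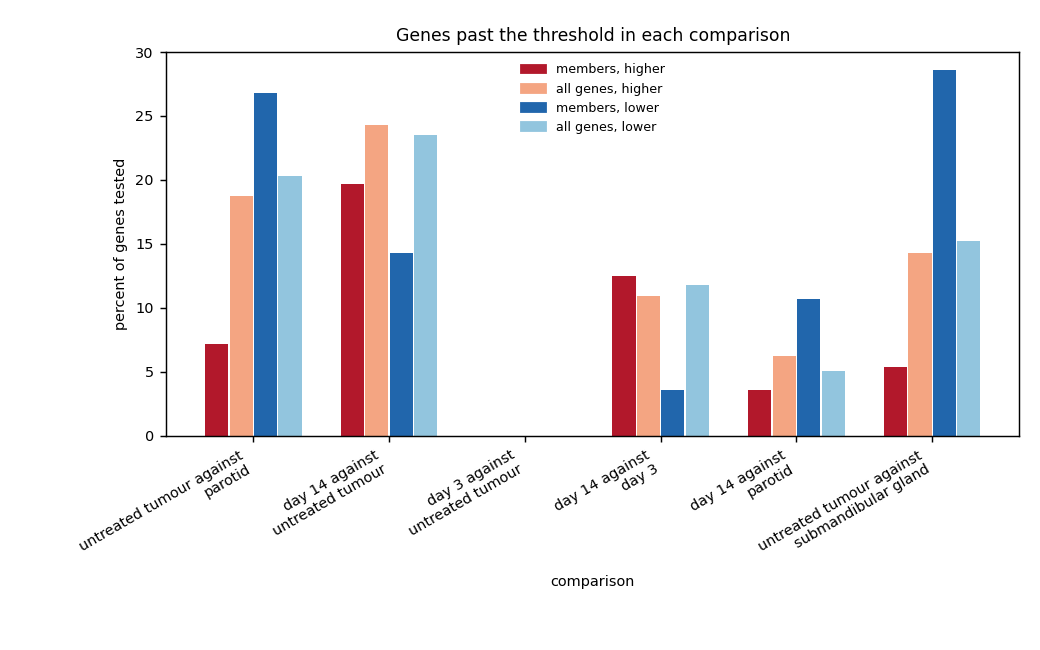
Percent of genes tested that were called higher or lower (adjusted p under 0.05) in each of 6 comparisons, for the 56 members and for all 16366 genes. The members' bars for lower genes stand above those of all genes in untreated tumour against either gland (15 and 16 members), and below them at day 14 against untreated tumour (8 members). No member was called at day 3, and no bar is drawn there.

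A wider list of 75 further lysosomal and autophagy genes, all tested, had 4 higher and 20 lower in untreated tumour than in parotid, and 16 higher and 14 lower at day 14 than in untreated tumour. These are 32% and 40% of the list, against 39.0% and 47.7% of all genes, so the total called did not exceed the background in either. Against parotid the calls leaned to lower, where 18.7% of all genes were called higher and 20.3% lower. The median difference of the list there was −0.42, against 0.02 for all genes. Npc1, the cholesterol transporter of the lysosomal membrane, was at 0.44 and 0.24 in untreated tumours, 0.08 on day 3, −2.43 and −2.57 at day 14, −2.37 and −1.81 in parotid and −2.19 in submandibular gland. It stood apart in the 3 untreated and day 3 arrays: 2.43 ± 0.33 above parotid (adjusted p = 0.00268), with a fall of 2.84 ± 0.33 by day 14 (adjusted p = 0.00131). Man2b1, the lysosomal alpha-mannosidase, was at 2.92 and 3.06 in untreated tumours, 3.03 on day 3, 5.89 and 5.99 at day 14, 4.32 and 4.27 in parotid and 6.58 in submandibular gland. It rose by 2.94 ± 0.19 by day 14 (adjusted p = 0.000252) and then exceeded parotid by 1.64 ± 0.19 (adjusted p = 0.00865, and 0.132 and 0.13 without either day 14 array).

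Of the same list, Bnip3, a mitophagy receptor (2.00 ± 0.21, adjusted p = 0.00101), and Gusb, beta-glucuronidase (1.73 ± 0.24, adjusted p = 0.003), were also higher in untreated tumour than in parotid. The ganglioside activator Gm2a (−2.28 ± 0.31, adjusted p = 0.00257), Gnptg, a subunit of the enzyme that tags hydrolases for the lysosome (−1.99 ± 0.22, adjusted p = 0.0012), and Tecpr1, a tethering factor of autophagosomes (−1.82 ± 0.26, adjusted p = 0.00296), were lower. At day 14, Trp53inp2, which binds ATG8 proteins, rose (1.94 ± 0.50, adjusted p = 0.0206). The protease Lgmn fell by 2.22 ± 0.24 (adjusted p = 0.00107) and alpha-galactosidase, Gla, by 2.13 ± 0.45 (adjusted p = 0.0101). The call of Trp53inp2 was lost without any 1 of the 4 arrays compared (adjusted p = 0.0785 to 0.105), and that of Gla without untreated tumour replicate 2 or day 14 replicate 1 (0.0596 and 0.0644). Between day 14 and day 3 the list had 15 genes called (20%, against 22.8% of all genes), and in untreated tumour against submandibular gland 23 (30.7%, against 29.4%). Between day 14 and parotid 11 were called (14.7%, against 11.3%), of which 10 were lower, led by Glb1, beta-galactosidase (−1.87 ± 0.35, adjusted p = 0.0264, and 0.0591 to 0.185 without an untreated tumour or a day 14 array).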

How the data were processed

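The authors scanned 8 Agilent whole mouse genome arrays with Feature Extraction 10.7.3.1, per the file headers, which gave each spot a background-subtracted intensity that was not scaled between arrays. The log2 table that the authors deposited served only as an alternative. Probe positions refer to mm8. Flagged outlier spots were left out, which removed 124 probes. Probes were kept where at least 1 group had them well above background on all its arrays, and the brightest stood for its gene. The log2 intensity minus the array's 75th percentile was modelled in limma (version 3.58.1, R 4.3.3) with 1 mean per group, an intensity trend and 3 residual degrees of freedom, and tested on simulated data. The single day 3 and submandibular arrays were assumed to vary like the other groups. Adjusted p-values are two-sided Benjamini-Hochberg values over 16366 genes, with a threshold of 0.05. The number of arrays limits the precision. Members and lists were chosen with earlier results of these data known. All members could be named. Values on every array were given for the regulators, Lamp1, Lamp2, the ATG8 genes and the 8 members with the largest called differences in the first 2 comparisons, and for further members chosen after their values were seen. From the wider list, 3 genes per direction were named in the first 2 comparisons and at most 1 in the others. One result that this rule selects is not reported here. Marker lists not named in the report (adipocyte, neutrophil, B and plasma cell, osteoclast) were summed the same way. Alternatives are given in the closing section.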

Additional observations from a re-analysis of the deposited data

How the results depend on the processing

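The counts of members called were 19 against parotid, 19 at day 14 against untreated tumour, 0 at day 3, 9 at day 14 against day 3, 8 at day 14 against parotid and 19 against submandibular gland. Against parotid, 10 were called with slide as a fixed block, 11 with only the arrays of the groups compared, and 8 to 36 when 1 replicate was left out. At day 14 against untreated tumour, 12 were called with normexp, 29 on slide 1 alone, 32 with only the groups compared, and 9 to 32 without 1 replicate. At day 3 the count was 0 in every alternative run. At day 14 against day 3, 26 were called with only the groups compared and 1 to 23 without 1 replicate. At day 14 against parotid, 5 were called with normexp, with slide as a fixed block and with only the groups compared, 18 with quantile normalization, 13 with the deposited values and 0 to 29 without 1 replicate. Against submandibular gland, 12 were called with normexp, 30 without a filter on dim probes, 10 with slide as a fixed block, 37 with only the groups compared and 8 to 38 without 1 replicate. Slide as a random block, a 2-fold minimum, dropping the intensity trend, averaging probes by gene and requiring detection on all arrays each kept every count within 1.5 times. In the comparisons with calls, the share of all genes called moved in the same direction as the counts when a replicate was left out. With slide as a fixed block that share was 31.2% against parotid (39% in the main fit), 9.21% at day 14 against parotid (11.3%) and 13.8% against submandibular gland (29.4%). Without a filter on dim probes it was 49.5% against submandibular gland. On slide 1 alone it rose, as the count did, at day 14 against untreated tumour. With normexp it was 31.2% at day 14 against untreated tumour (47.7% in the main fit), 6.75% at day 14 against parotid and 18.8% against submandibular gland. With only the groups compared it was 27.1% against parotid and 64.5% at day 14 against untreated tumour. It was then 53.3% at day 14 against day 3, 4.23% at day 14 against parotid and 49.4% against submandibular gland. At day 14 against parotid it was 14.9% with quantile normalization and 12.5% with the deposited values. Over the single genes called, 1298 of the values under an alternative kept their call, 311 lost it and 1 reversed (Atp6v0e at day 14, 0.34 with the mean of its probes). Of the 19 calls against parotid, 7 held whichever replicate was left out, as did 9 of 19 at day 14, 0 of 9, 0 of 8 and 8 of 19 in the other comparisons with calls, in the order above. The causes of these changes were not tested. Slide 1 alone could not be run for comparisons with day 3 or submandibular gland. No paired analysis was possible because the labels number only some samples of a group. Dim pump subunits limit what the arrays show, since a probe near background gives only a bound.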

Other observations

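Other cell types that could bring lysosomal transcripts also differed between the groups. Summed as in the report, 5 adipocyte markers were at 13.0 to 22.9 in untreated tumours, 92.4 at day 3, 249 to 282 at day 14, 51.9 to 216 in parotid and 31.4 in submandibular gland. The 4 neutrophil markers tested were at 37.1 to 41.2 in untreated tumours, 135 at day 3, 1.56 to 1.70 at day 14, 4.21 and 68.0 in parotid replicates 1 and 2, and 0.22 in submandibular gland. The 6 B and plasma cell markers were at 0.15 to 0.28 in untreated tumours, 0.27 at day 3 and 72.6 to 79.5 at day 14, against 58.3 to 104 in parotid and 47.6 in submandibular gland. The 3 osteoclast markers, relevant to Atp6v0d2 and Ctsk, were at 2.61 to 2.68 in untreated tumours, 1.57 at day 3, 2.98 to 3.97 at day 14, 3.07 to 6.53 in parotid and 4.88 in submandibular gland.

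The probes of a gene did not always agree at day 14 against untreated tumour. Atg7 gave −0.84 and 2.17, Atg4d −0.52 and 1.12, Atp6v0a1 −0.76 to 1.27 over 3 probes, and Ctsd −1.60 and −0.25. Both probes of Atp6v0e2 (−4.23 and −2.48) and of Atg4b (−1.70 and −1.68) were below 0.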
